A study of Ovis aries with 14 samples.

Results

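A set of 44 genes of meiotic chromosome structure and recombination was followed in sheep ovary by symbol. They encode the synaptonemal complex, meiotic cohesin, the proteins that make and repair programmed DNA breaks, the tethers that hold telomeres to the nuclear envelope, and regulators of meiotic entry. The fetal table listed 37 of the 44 among its 16513 genes. The 2 adult tables listed 20 and 22, and 23 were listed in at least 1 of them. The remaining 7 (IHO1, M1AP, MEIOB, MSH5, PRDM9, RNF212 and TERB2) were not found by these symbols and are not counted as measured. IHO1 was listed under its older symbol CCDC36, which is given at the end and kept out of the counts.

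RNA of whole frozen ovaries from wild type Suffolk sheep was sequenced. Pregnant ewes of the treated groups received testosterone propionate in cottonseed oil by intramuscular injection, 2 times a week between gestation days 30 and 90, and the daughters of these ewes and of control ewes were compared. Ovaries came from 3 control and 3 testosterone fetuses at day 90, and from 4 control and 4 testosterone adults at year 2 by the sample labels, while the series text counts 3 adult controls. The labels do not say what the control ewes received or which animals shared a mother, so the p-values cover the spread among these animals alone.

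In mammals, the germ cells of a female enter meiosis before birth. Cohesin holds sister chromatids along a protein axis, SPO11 cuts the DNA, the recombinase DMC1 pairs the broken ends with the homologous chromosome, and the synaptonemal complex zips the homologues together while crossovers form. The oocyte then arrests at the end of prophase and stays so until ovulation, so the ovary transcribes this machinery mainly in fetal life.

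Recovered depth was 22.6 to 33.4 M reads per library. Levels are given as the authors' normalized counts, which are reads divided by a size factor for each library, and changes as differences of log2(normalized count + 1), testosterone minus control. Counts were compared between libraries of a gene and not between genes, because gene lengths were not available. The germ cell helicase DDX4 was present in every fetal library (4415, 6579 and 3679 in controls and 4681, 3163 and 3156 after testosterone), as was the oocyte growth factor GDF9 (2195, 2046 and 3613 in controls and 2256, 1966 and 3241 after testosterone). Whole ovary RNA cannot tell fewer germ cells from less RNA per germ cell.

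In the fetal ovary all 37 meiotic genes ranged more widely among the 3 controls than the group means differed, against 77.4% of all genes. Among the 3 testosterone fetuses 34 of them did so, against 82.1% of all genes. Control 2 held the highest normalized count of 31 of the 37 genes, against 19.3% of all genes. RPM are reads scaled to the library total of the table. On that scale controls 1 and 2 and testosterone 1 all stood above control 3, testosterone 2 and testosterone 3 in 31 of them, against 11.4% of all genes. The recombinase DMC1, the break-making enzyme SPO11 and the axis protein HORMAD1 spanned more than 12-fold between libraries, while the crossover factor MLH3 and the cohesin protector SGO2 spanned less than 1.5-fold. After testosterone 33 of the 37 had a negative change, against 53.4% of all genes, with a median log2 change of -0.41, and none passed the test. The cohesin subunit SMC1B (-0.56) and the repair factor TEX15 (-0.68) had the smallest p-values.

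Among the axis and central element genes of the synaptonemal complex, SYCP1 forms the filaments that bridge the homologues. Its normalized count was 491, 903 and 151 in controls 1, 2 and 3 and 726, 442 and 194 in testosterone 1, 2 and 3. Control 2 and testosterone 1 were the high libraries, control 3 and testosterone 3 the low ones, and the groups overlapped (log2 change -0.04, SE 0.66). For SYCP3, a structural protein of the axis, control counts were 899.8, 1005 and 399.8 and testosterone counts 977, 606 and 459.8. The low libraries were again control 3 and testosterone 3, with a change of -0.14 (SE 0.38). SYCE1, a central element protein, had 215, 324 and 122 reads after normalization in controls and 226, 101 and 122 after testosterone. Control 3, testosterone 2 and testosterone 3 lay close together below the rest, and the change was -0.53 (SE 0.40).

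SYCE2, also of the central element, ranged less, with 439, 590.0 and 397 in controls and 546, 268 and 400.4 after testosterone (log2 change -0.27, SE 0.26). HORMAD1 marks axes that have not yet synapsed and is removed once they have. Its counts were 263, 457 and 36.98 in controls and 186, 70.9 and 42.5 after testosterone, a 12.4-fold range over the 6 libraries. Control 3 lay below all testosterone libraries while controls 1 and 2 lay above them, and the change of -0.99 had an SE of 0.89. SYCE3, another central element protein, was 1 of 4 members with a positive change (0.03, SE 0.57), with counts of 33.1, 58.7 and 18.0 in controls and 67.6, 17.2 and 32.1 after testosterone. The other 3 listed genes of this role, HORMAD2, the axis protein SYCP2 and the central element protein TEX12, had ranges of 4.38-fold, 3.27-fold and 2.497-fold. None of the 9 genes of this role reached an unadjusted p under 0.05.

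**Figure D1:**
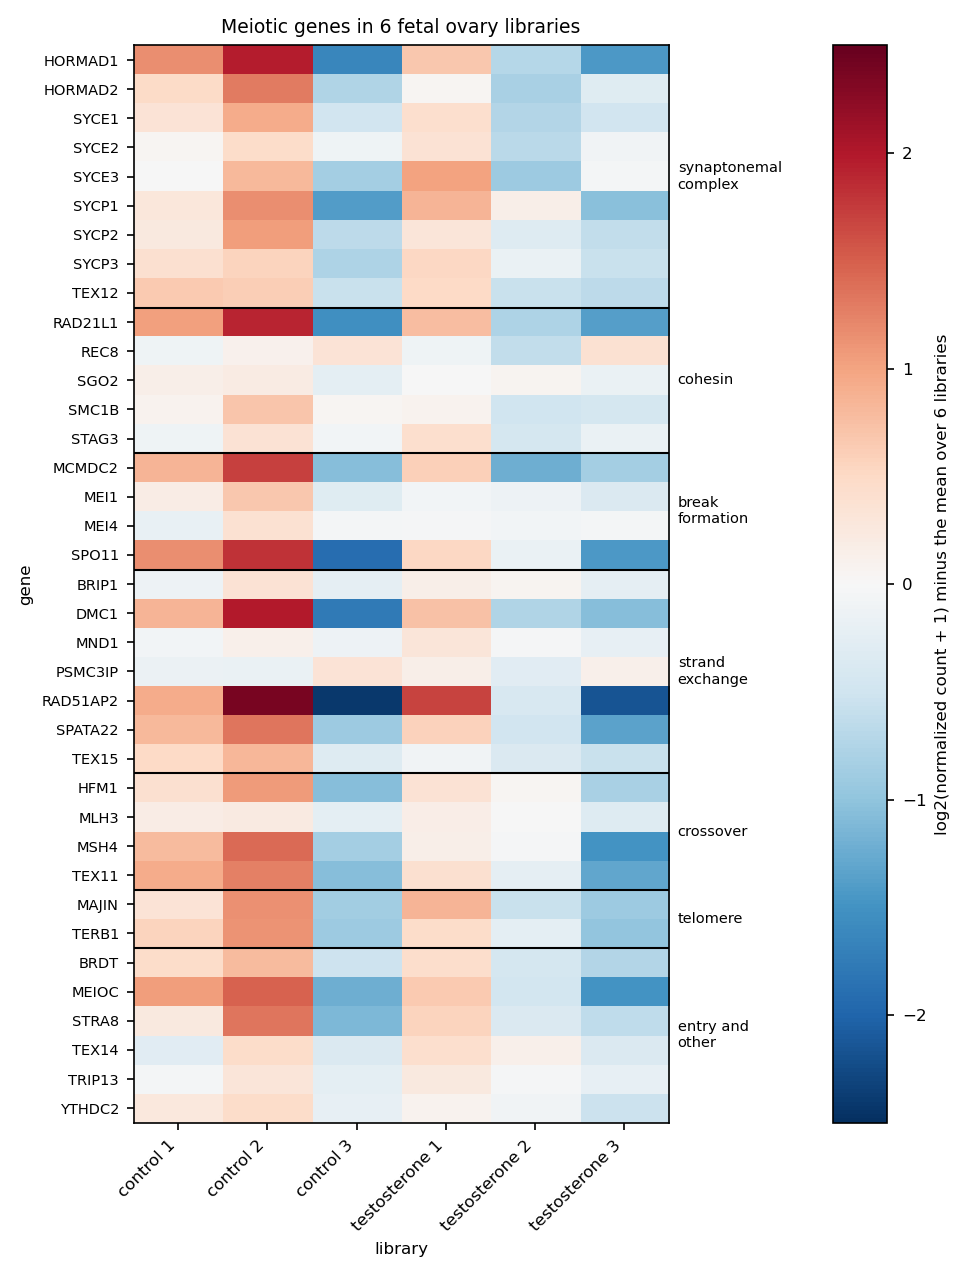
Heat map of the 37 meiotic genes listed in the fetal table (rows, grouped by role) in the 6 fetal libraries (columns). Colour gives log2(normalized count + 1) minus the gene's mean over the 6 libraries, red above and blue below the mean, and control 2 is the highest library for 31 of the 37 genes.

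The meiotic cohesin genes fell into wide and narrow ranges. SMC1B (ENSOARG00000019386), the meiosis-specific SMC1 subunit, had 2204, 3359 and 2153 in controls and 2205, 1458 and 1533 after testosterone. Control 2 was far above the rest and testosterone 1 was level with control 1, so the groups overlapped. Its change of -0.56 (SE 0.21, 95% interval -1.05 to -0.08) had an unadjusted p of 0.0275 and an adjusted p of 0.453 by limma, and it was -0.36 without control 2 and -0.75 without testosterone 1. STAG3, the subunit that binds the meiotic cohesin ring, had 3841, 5296 and 3919 in controls and 5517, 3019 and 3652 after testosterone, a change of -0.13 (SE 0.22). The highest library was testosterone 1 and the lowest testosterone 2.

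REC8, the kleisin that closes the ring, did not follow the order of libraries seen in most members. REC8 counts were 558, 652 and 759.6 in controls and 562, 394 and 783 after testosterone, highest in testosterone 3 and control 3 (change -0.22, SE 0.24). The other meiotic kleisin, RAD21L1, had low counts (34.2, 63.6 and 4.997 in controls and 28.4, 9.12 and 5.67 after testosterone) and a 12.7-fold range. SGO2, which shields centromeric cohesin, ranged 1.38-fold. The somatic counterparts were steadier. SMC1A had 4039.6, 4421 and 3863 in controls and 3187, 3317 and 3736 after testosterone (1.39-fold from lowest to highest, change -0.27, adjusted p = 0.441 by limma), and the ranges of STAG1, STAG2 and RAD21 were 1.12-fold, 1.16-fold and 1.11-fold. None of the 13 measured cohesin genes of dividing cells spanned 2-fold. Of these, 3 (SMC1A, PDS5A and PDS5B) were lower at an unadjusted p under 0.05, against 4.5% of all genes, with none called by limma.

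Break formation rests on SPO11, which cuts the DNA. SPO11 counts were 90.8, 143 and 9.99 in controls and 57.8, 35.5 and 14.2 after testosterone, a 14.3-fold range. The lowest and the highest library were both controls, and the change was -0.72 with an SE of 0.93. MEI1 is required in mice for these breaks. Its counts were 1052, 1469.5 and 742 in controls and 879, 842 and 719 after testosterone (change -0.37, SE 0.23, adjusted p = 0.629 by limma), and control 3 lay among the testosterone libraries. MEI4, also needed for breaks in mice, was nearly level apart from control 2 (lowest 201, highest 296). MCMDC2, needed in mice for recombination in meiosis, ranged from 7.09 to 60.7 with a change of -0.99 (SE 0.76).

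The strand exchange genes included the member with the widest range. RAD51AP2 counts were 39.5, 111 and 3.00 in controls and 67.6, 15.2 and 3.78 after testosterone, and the lowest value was 3 reads, so no fold is given. DMC1, the meiotic recombinase, had 84.4, 187 and 13.0 in controls and 78.4, 27.4 and 21.7 after testosterone, a 14.4-fold range. Both genes were lowest in control 3 and highest in control 2, and their changes of -0.59 (SE 1.30) and -0.71 (SE 0.90) were smaller than their errors. TEX15 (ENSOARG00000000131), needed in mice to load recombinases on breaks, had 899, 1138 and 512 in controls and 597, 498 and 431 after testosterone. Controls 1 and 2 were above every testosterone library and control 3 was among them. Its change of -0.68 (SE 0.28, 95% interval -1.31 to -0.04) had an unadjusted p of 0.0392, an adjusted p of 0.482 by limma and 0.180 by DESeq2. It was -0.43 without control 2, -1.003 without control 3 and -0.25 with the germ cell identity mean as a covariate.

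SPATA22, which works on single-stranded DNA with MEIOB, ranged 6.46-fold, from 110.5 to 713. By contrast MND1 and PSMC3IP, the pair that stimulates DMC1, were among the narrow genes. MND1 had 515, 588 and 492 in controls and 665, 527 and 470.2 after testosterone (1.41-fold, change 0.05, SE 0.16), and PSMC3IP ranged 1.55-fold with its highest value in control 3. BRIP1, a DNA helicase also used in somatic repair, had 161, 229 and 151 in controls and 197, 186 and 151 after testosterone, and its change was -0.0024 (SE 0.21).

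Of the crossover genes, MSH4 holds recombination intermediates together with MSH5, which was not measured. MSH4 counts were 113, 176 and 36.0 in controls and 72.5, 63.8 and 22.7 after testosterone, highest in controls 2 and 1 and lowest in testosterone 3 and control 3. The change was -0.91 (SE 0.63, adjusted p = 0.657 by limma). TEX11, a meiotic protein of crossover formation, ranged from 505 to 2977 and the helicase HFM1 from 217 to 950.0. TEX11 was lowest in testosterone 3 and HFM1 in control 3. MLH3, a factor in crossover resolution, was narrow (1.45-fold). The telomere tethers MAJIN and TERB1 ranged 4.18-fold and 4.43-fold, with control 2 highest for both.

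Among the regulators, STRA8 is the retinoic acid target that starts meiosis. STRA8 counts were 128, 275 and 49.0 in controls and 159, 84.1 and 68.9 after testosterone, with the highest and the lowest both among controls (change -0.30, SE 0.59). MEIOC and YTHDC2 form an RNA-binding complex that keeps germ cells in the meiotic program. MEIOC had 696, 933 and 143 in controls and 531, 243 and 119 after testosterone, a 7.85-fold range (change -0.86, SE 0.74). YTHDC2 had 1625, 1847 and 1174 in controls and 1433, 1266 and 927 after testosterone, with testosterone 3 lowest (change -0.36, SE 0.21, adjusted p = 0.608 by limma).

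TRIP13 removes HORMAD proteins from synapsed axes and also serves the mitotic checkpoint. Its counts were 596, 760.2 and 522 in controls and 733, 603 and 539 after testosterone, and the change of 0.0036 (SE 0.18) turned to -0.0027 with DESeq2 and -0.0029 with edgeR. TEX14, a protein of the bridges between germ cells, had 1379.7, 2328 and 1311 in controls and 2268, 1854 and 1308 after testosterone, the most positive change of the members (0.13, SE 0.26). Control 2 and testosterone 1 were its high libraries. BRDT, a bromodomain protein best known from testis, ranged 2.86-fold, from 255 to 729.

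Set together, none of the 37 members was called between the fetal groups by limma at an adjusted p under 0.05, where 0.0121% of 16513 genes were called higher and 0.00606% lower. DESeq2 called no member either, against 1.07% of genes higher and 0.509% lower, nor did edgeR, against 0.0182% and 0.00606%. At an unadjusted p under 0.05 there were 2 members, SMC1B and TEX15, both lower, against 4.5% of all genes. The groups overlapped for all 37, whereas 16.3% of all genes had groups that did not overlap. A negative change was found in 33 of 37 members and in 53.4% of all genes, and the median over all genes was -0.02. The members' median moved with single libraries and was -0.08 without control 2, -0.18 without testosterone 3, -0.68 without testosterone 1 and -0.86 without control 3. In the authors' deposited table no member was called either, and the lowest adjusted p was 0.168, for TEX15. MCMDC2 and RAD21L1 had no adjusted p there and could not be called.

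**Figure D2:**
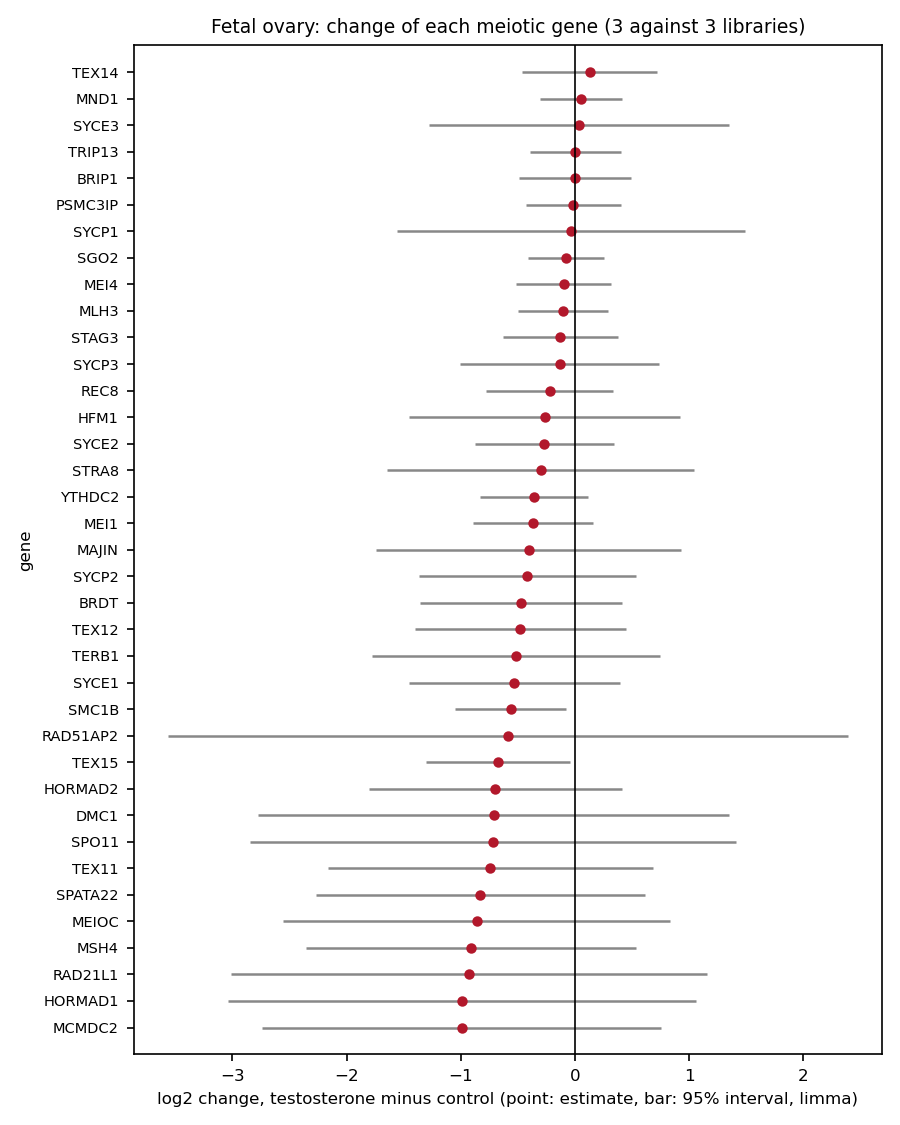
Log2 change of each of the 37 meiotic genes in the fetal ovary, testosterone minus control (point), with its 95% interval by limma (bar), 3 libraries against 3. The intervals of SMC1B and TEX15 lie below 0 and those of the other 35 genes include it.

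The spread behind these errors was wider than for most genes. The highest library was at least 2 times the lowest in 26 of 37 members against 23.6% of all genes, at least 4 times in 16 against 5.71%, and at least 8 times in 6 against 1.85%. The median range was 3.20-fold for the members and 1.47-fold for all genes. Within the 3 controls the median SD of log2 counts was 0.72 for the members and 0.17 for all genes, and within the 3 testosterone fetuses 0.60 and 0.19. The range within controls exceeded the difference of the group means in 37 of 37 members and in 77.4% of all genes. The range within the testosterone fetuses did so in 34 of 37 and in 82.1% of all genes, the exceptions being TEX15, MEI1 and MEI4.

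The order of libraries recurred from role to role. Control 2 was highest in 31 of 37 members and in 26.6% of all genes in RPM. On that scale controls 1 and 2 and testosterone 1 were all above the other 3 libraries in 31 of 37 members and in 11.4% of all genes. Averaged over the 37 genes, log2 counts relative to each gene's own mean were 0.39, 0.94 and -0.70 in controls 1, 2 and 3 and 0.41, -0.35 and -0.67 in testosterone 1, 2 and 3. The order was thus taken from the members' own values, so its share beside all genes is a description and not a test. The 6 exceptions to that order were BRIP1, MEI4, PSMC3IP, REC8, SGO2 and TEX14.

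Other genes used mainly in meiosis, a list of 40 of which 26 were measured, gave 0.30, 0.64 and -0.30 in controls and 0.24, -0.40 and -0.47 after testosterone. Of these 25 were negative, none was called by limma, the median change was -0.34, and control 2 was highest for 20. TDRD9, a germ cell helicase, had 2017, 2935 and 2129 in controls and 1914, 1554 and 1994 after testosterone (change -0.36, SE 0.16, adjusted p = 0.524 by limma). In 47 recombination genes shared with dividing somatic cells the means stayed between -0.07 and 0.12. There were 20 positive and 27 negative changes, with a median of -0.07 and no gene called by limma.

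Germ cell identity genes, of which 11 of 21 were measured, had smaller mean deviations than the meiotic genes in all 6 libraries. Their means were 0.08, 0.51 and -0.19 in controls and -0.01, -0.18 and -0.22 after testosterone. The changes were negative for 10 of 11, with a median of -0.34 and no gene called by limma. At an unadjusted p under 0.05, 2 (PRDM1 and RNF17) were lower, against 4.5% of all genes. The meiotic mean minus the germ cell identity mean was 0.31, 0.42 and -0.52 in controls and 0.42, -0.18 and -0.46 after testosterone. Its group means were 0.07 ± 0.51 and -0.07 ± 0.45 (SD, n = 3), so the groups differed by less than the spread within them. With the germ cell identity mean as a covariate the members' median change was 0.16 and none was called. In that limma fit TEX14 (0.50), SYCP1 (0.998) and STRA8 (0.66) were higher at an unadjusted p under 0.05. SMC1B (-0.26, unadjusted p = 0.13) and TEX15 (-0.25, unadjusted p = 0.18) no longer were under it. The share of all genes under it was not counted for that fit.

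The piRNA pathway genes, 15 of 17 measured, had means of -0.02, 0.39 and 0.02 in controls and 0.05, -0.33 and -0.12 after testosterone. Of these 14 were negative and none was called by limma. At an unadjusted p under 0.05, 4 of the 15 (MOV10L1, PIWIL2, PNLDC1 and GTSF1) were lower, against 4.5% of all genes. Genes of the oocyte and its zona pellucida ran the other way in control 3 and testosterone 3. Over 15 of 25 measured genes the means were -0.10, -0.25 and 0.67 in controls and -0.21, -0.38 and 0.27 after testosterone, and control 3 was highest for 11. Their changes after testosterone were still negative for 14 of the 15, with a median of -0.17 and none called by limma. At an unadjusted p under 0.05, 1 of them (TAF4B) was lower, against 4.5% of all genes. Cell division genes, 22 of 27 measured, stayed between -0.12 and 0.08.

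**Figure D3:**
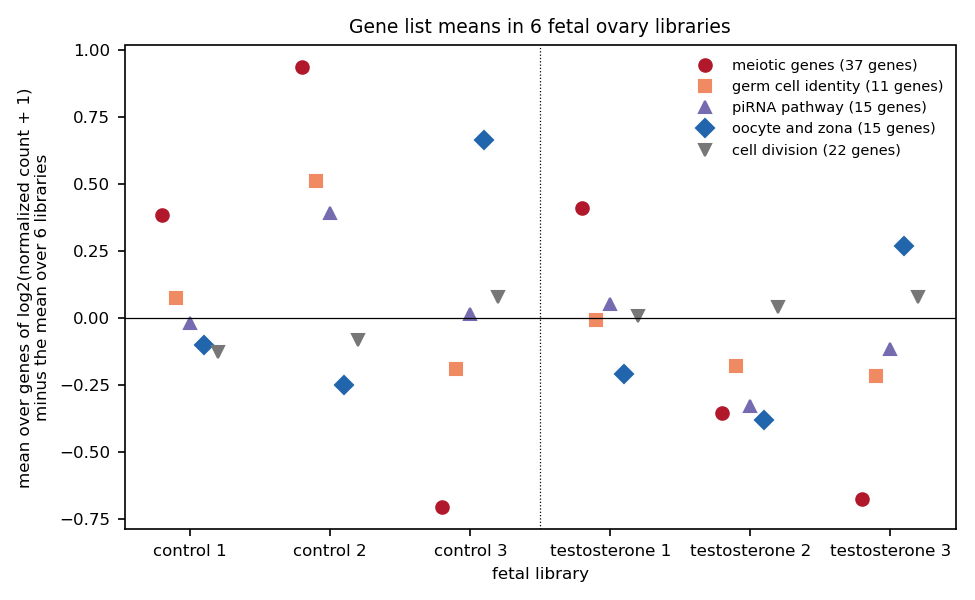
Mean over genes of log2(normalized count + 1), each gene relative to its mean over the 6 fetal libraries, for 5 gene lists (symbols) in each library; the dotted line parts controls from testosterone. Meiotic genes stand at 0.94 in control 2 and -0.70 in control 3, while oocyte and zona genes stand at -0.25 and 0.67 there.

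Among the markers of other cells, those of smooth muscle and surface epithelium had summed counts that did not overlap between the fetal groups. No marker of any list was called by limma. With DESeq2 the adjusted p was 0.0015 for the smooth muscle marker MYH11 and 0.039 for the stroma marker DCN, both higher after testosterone. DESeq2 was read for part of the markers only, and CYP17A1 and CYP11A1, given below, were not among them. All 6 measured smooth muscle markers of 7 had positive changes, 5 of them at an unadjusted p under 0.05, where 5.26% of all genes were higher, and their summed normalized counts were 31141 to 41962 in controls and 45783 to 71948 after testosterone. All 3 measured surface epithelium markers of 7 were positive as well, with sums of 1933 to 2939 and 3739 to 4579. None of these 9 markers was at 0 in any library. Control 2, highest for meiotic genes, had the lowest sum in both lists. Stroma and theca markers went both ways, with 4 of 11 positive, 3 higher and 1 lower at an unadjusted p under 0.05, and granulosa markers likewise, with 8 of 15 positive, 3 higher and 1 lower. The lower stroma and theca marker was CYP17A1, the enzyme of androgen synthesis, with 81.2, 44.0 and 208 in controls and 13.7, 6.08 and 17.0 after testosterone (change -2.90, SE 0.59, adjusted p = 0.237 by limma). In the corpus luteum list, 1 of 6 positive, the steroid enzyme CYP11A1 had 256, 174 and 511 in controls and 60.8, 35.5 and 87.8 after testosterone (change -2.28, SE 0.44, adjusted p = 0.223 by limma). Endothelium had 4 of 6 positive and blood and immune cells 3 of 7, with none at an unadjusted p under 0.05. The part of these cells in the negative changes of the meiotic genes was not tested.

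Most of the meiotic program was low or not listed in the adult ovary. Of the 37 fetal members, 14 were in neither adult table: SYCE1, SYCE3, SYCP2, TEX12, HORMAD1, HORMAD2, RAD21L1, SPO11, MCMDC2, DMC1, RAD51AP2, SPATA22, MEIOC and BRDT. They are 37.8% of the listed fetal members, against 7.02% of all fetal genes. Each table lists genes from a sum of 61 reads over its 6 libraries upward.

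The fetal and adult tables were normalized separately, so ages are set side by side in RPM, without a test. For 16 of 23 members listed at both ages every fetal library was above every adult library, against 20.9% of 15354 genes, and for none was it below, against 5.52%. SMC1B had a median of 82.8 RPM in fetal libraries (55.1 to 134) and 0.895 in adult ones (0.391 to 2.70). The fetal and adult medians were 149 and 4.72 for STAG3, 51.7 and 0.410 for TEX11, and 17.9 and 0.322 for SYCP1. The ratio of medians was 126-fold for TEX11, 92.6-fold for SMC1B, 55.6-fold for SYCP1 and 31.5-fold for STAG3. TEX11 and SYCP1 were each listed in a single adult table, so their adult medians rest on 6 libraries and the others on 8. Their lowest adult libraries held 7 and 6 reads. Over the 23 members the median ratio was 5.77, and over all genes 1.21. The ranges of the 2 ages overlapped for SYCP3, MEI1, HFM1, MLH3, MSH4, TRIP13 and YTHDC2, of which TRIP13 (23.0 and 13.4) and MLH3 (31.5 and 19.8) have known uses outside meiosis.

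**Figure D4:**
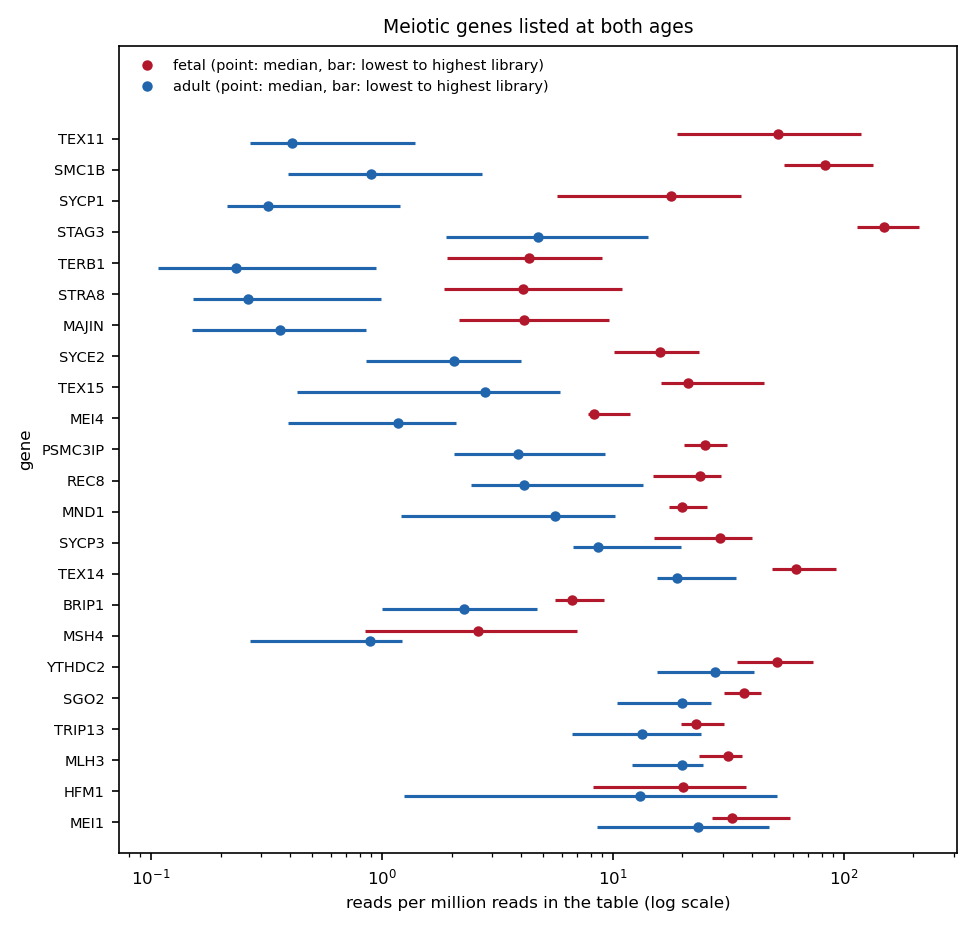
Levels in RPM (reads scaled to the library total of the table), on a log axis, for the 23 meiotic genes listed at both ages, fetal in red and adult in blue; points are medians and bars run from the lowest to the highest library. The 16 genes whose bars do not overlap are all higher in fetal libraries, and TEX11, SMC1B and SYCP1 are farthest apart.

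In the adult ovary the changes after prenatal testosterone were mostly positive, and none passed the test. The first adult table set controls 4, 5 and 6 against testosterone 4, 5 and 6, the second controls 4, 6 and 7 against testosterone 5, 6 and 7. They share 4 libraries and are not independent, and control 6 held 26.4 M reads in the first and 33.4 M in the second. No member was called by limma among 20 and 22 tested, against 0.00631% and 0.00623% of all genes higher and 0% lower. DESeq2 called none, against 0.0129% of genes higher and 0.0129% lower in the first table and 0.0191% and 0.0127% in the second, and edgeR called no gene. HFM1 had no p-value by DESeq2 in the second table and could not be called there. None of the members reached an unadjusted p under 0.05, against 0.637% and 0.486% of all genes. Positive changes were found in 19 of 20 and 19 of 22 members, against 48.5% and 49.0% of all genes, and the medians were 0.28 and 0.27. With edgeR 17 of 20 and 17 of 22 were positive, and with DESeq2 17 of 20 and 16 of 21. The first median was 0.16 without control 4, 0.58 without control 5 and 0.66 without testosterone 4, and the second was 0.04 without control 4 and 0.73 without control 7.

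Counts below are normalized over all 8 adult libraries, controls 4 to 7 and testosterone 4 to 7, unless a table is named. SYCE2 had the smallest p of the first table. SYCE2 counts were 28.3, 39.1, 30.8 and 94.5 in controls and 73.6, 49.2, 62.5 and 54.4 after testosterone. In the first table its groups did not overlap (change 0.85, SE 0.41, adjusted p = 1 by limma), while control 7, highest of all, was only in the second (change 0.33, SE 0.61). YTHDC2 was the only other member of the first table whose groups did not overlap, and the second had none, against 3.57% and 2.61% of all genes. YTHDC2 counts were 516, 678, 648 and 969 in controls and 746, 800.1, 701 and 982 after testosterone, and with all 8 libraries the groups overlapped (change 0.23, SE 0.23).

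The cohesin subunit STAG3 had 62.6, 85.3, 123 and 236 in controls and 129.9, 114, 254 and 374 after testosterone. Testosterone 6 and 7 were its high libraries and control 4 the low one, and the changes were 0.83 (SE 0.45) and 0.86 (SE 0.64) in the 2 tables. REC8 had 80.3, 86.4, 99.6 and 201 in controls and 69.6, 111, 153 and 357 after testosterone, with testosterone 7 and control 7 above the other 6 libraries. SMC1B counts were low, at 13.0, 31.9, 15.4 and 64.0 in controls and 11.3, 29.7, 31.7 and 12.5 after testosterone, and its changes were 0.17 (SE 0.66) and -0.04 (SE 0.82).

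SYCP3 was the member with a negative change in both adult tables (-0.01 and -0.16). Its counts were 256, 179, 219 and 466 in controls and 183, 234, 231 and 346 after testosterone, highest in control 7. SYCP1 was listed in the second table alone, with 7.12, 7.38 and 28.4 in controls 4, 6 and 7 and 8.49, 16.0 and 7.97 in testosterone 5, 6 and 7 (change -0.16, SE 0.84). The same held for STRA8, at 5.94, 17.2 and 6.32 and 3.77, 6.59 and 26.2, where no difference was detectable at this depth (change 0.03, SE 0.97).

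MEI1 had 386, 474, 231 and 1122 in controls and 357, 746, 701 and 870.0 after testosterone, with changes of 0.69 (SE 0.40) and 0.73 (SE 0.56). Control 7 held its highest count and control 6 its lowest. TEX15 had 14.2, 85.3, 48.6 and 78.7 in controls and 48.1, 144, 80.2 and 63.5 after testosterone, and its change of 1.22 (SE 0.74) carried the smallest p of the second table (0.139, unadjusted). Control 4 was far below the other 7 libraries. MSH4 had low counts of 14.2, 24.7, 7.29 and 25.2 in controls and 9.21, 29.7, 19.6 and 28.4 after testosterone (changes 0.40, SE 0.76, and 0.84, SE 0.70), lowest in control 6 and testosterone 4.

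TEX14 counts were 512, 472, 469 and 716 in controls and 501, 712, 862 and 501 after testosterone, changes of 0.48 (SE 0.26) and 0.28 (SE 0.32). Testosterone 6 was highest and the groups overlapped. TRIP13 had 221, 596, 194 and 556 in controls and 266, 328, 349 and 353 after testosterone, with 2 controls on each side of the testosterone libraries. BRIP1 had 33.1, 94.6, 50.2 and 111 in controls and 58.3, 95.6, 60.6 and 52.2 after testosterone, lowest in control 4 and highest in control 7. The crossover helicase HFM1 spanned the widest adult range, 41.3, 487, 77.7 and 1221 in controls and 114, 488, 429 and 245 after testosterone. Its change was 1.23 in the second table by limma (SE 1.18) and -0.19 in the authors' deposited table, which gave it no p-value.

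Over all 8 libraries 19 members were tested, none was called by limma and none had an unadjusted p under 0.05, 15 were positive, against 49.1% of all genes, and the median change was 0.23. Control 7 was highest for 10 of the 19 and for 19.2% of all genes, and control 4 lowest for 10 and for 21.3%. Means relative to each gene's own mean were -0.79, 0.13, -0.52 and 0.75 in controls 4 to 7 and -0.36, 0.27, 0.27 and 0.25 in testosterone 4 to 7. The cell division list had -0.91, 0.59, -0.71 and 0.97 and then 0.28, -0.36, -0.40 and 0.53, so it was lowest and highest in the same 2 controls. Oocyte and zona genes stood at -0.71, 0.73, -0.12 and 1.06 and at -0.85, 0.66, 0.48 and -1.26. All 12 measured had negative changes over the 8 libraries with none called by limma, although 8 of 12 and 6 of 13 were positive in the 2 tables. Smooth muscle markers reached 2.87 in control 4, and corpus luteum markers 3.45, 3.51 and 3.22 in control 6, testosterone 4 and testosterone 7. The part of these cells in the adult values was not tested.

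**Figure D5:**
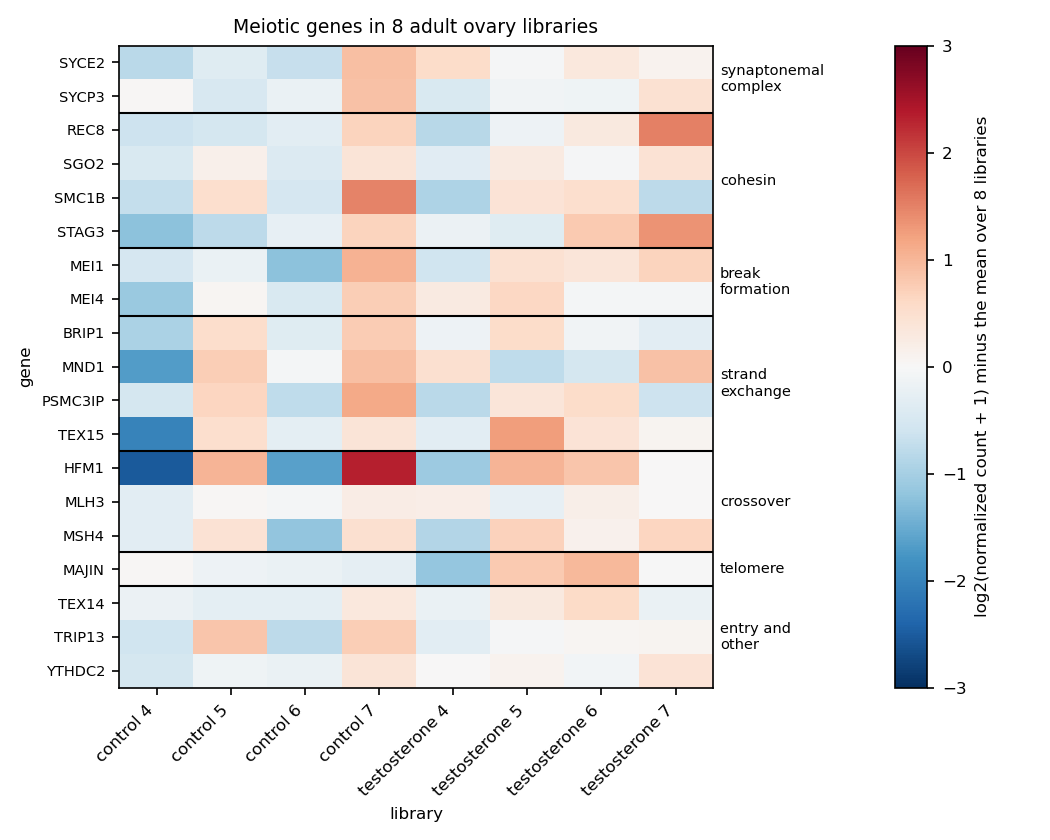
Heat map of the 19 meiotic genes listed in both adult tables (rows, grouped by role) in the 8 adult libraries (columns). Colour gives log2(normalized count + 1) minus the gene's mean over the 8 libraries, and control 7 is highest for 10 genes while control 4 is lowest for 10.

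The change after testosterone was more negative in the fetal ovary than in the adult for 19 of 20 members in the first adult table and 20 of 22 in the second, against 49.7% and 49.9% of all genes. Both counts use the same fetal libraries. The difference between ages was called for none of the members by limma, against 0.00657% and 0.00654% of all genes, and 3 and 1 members had an unadjusted p under 0.05, against 2.78% and 1.88% of all genes. TEX15 had the largest difference, with -0.68 in the fetal ovary and 1.22 in the second adult table (difference 1.90, SE 0.79, adjusted p = 1). SYCE2 differed by 1.12 (SE 0.49, adjusted p = 0.997) and MEI1 by 1.06 (SE 0.46, adjusted p = 0.997) in the first adult table. An interaction between age and treatment in edgeR called none of 19 members, against 0.00659% of all genes, and none had an unadjusted p under 0.05, against 2.14%. In that fit the difference was positive for 14 of the 19, against 51.4% of all genes.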

How the data were processed

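RNA was sequenced from whole ovaries of 14 sheep. Per the labels, 500 ng of RNA were read as paired 150-base reads. The submitters' processing notes name Trimmomatic 0.36 for trimming and STAR 2.5.2b for alignment. Per the series text, DESeq2 made the authors' comparisons. How reads were counted, the strand setting, the build and the annotation are not given in the sources, so overlapping genes may share reads. The authors deposited 3 tables of normalized count signal with log2 fold changes, p-values and adjusted p-values. Dividing the deposited signal of a library by the value of 1 read gave whole reads for 100% of genes (tolerance 0.01).

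Genes with a mean of at least 10 were tested within each table on log2(value + 1) by limma 3.58.1 with a mean-variance trend, in R 4.3.3, with Benjamini-Hochberg adjustment at 0.05. edgeR 4.0.16 and DESeq2 1.42.0 on recovered reads were alternatives. All 37, 20 and 22 listed members passed the filter. The 8 adult libraries were joined on recovered reads with DESeq2 size factors, control 6 from the second table. Tests were checked on simulated counts. Counting depth was 22.6 to 33.4 M reads.

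The members, role lists, marker lists and named genes were chosen with earlier results of these data known. Values in every library are given for 18 genes chosen by symbol wherever listed (MEIOB was not), up to 4 members of smallest p per direction and table, and the 3 widest fetal ranges. Other members are given by range. Of the comparison and marker lists, up to 4 genes of smallest p were named. RAD21L1 in the fetal ovary, HFM1 in the adult ovary and GDF9 fall outside these rules and were chosen after their values were seen. Samples of equal number were not treated as pairs. Deviations of same-numbered fetal samples correlated at 0.13, 0.0093 and 0.40 across 16513 genes. Numbers 4, 5 and 6 gave -0.15, 0.33 and -0.48 in the first adult table, and numbers 6 and 7 gave -0.46 and -0.34 in the second. Differently numbered samples were not compared, so these values cannot decide whether the numbers pair the samples.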

Additional observations from a re-analysis of the deposited data

Results flagged for a closer look

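In the adult ovary, 2 values stood apart from the other 3 of their group by Dixon's criterion for groups of 4, and both were in control 7. SYCE2, a central element protein of the synaptonemal complex, had a normalized count of 94.5 in control 7 and 28.3, 30.8 and 39.1 in the other controls. REC8, the meiotic kleisin, had 201 in control 7 and 80.3, 86.4 and 99.6 in the others. Of 38 groups tested, 2 were picked out, and chance picks out about 1 in 20. Control 7 also had the highest cell division mean (0.97) and the highest oocyte and zona mean (1.06) of the 8 adult libraries.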

How the results depend on the processing

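No member was called under any of 17 fetal, 17 first adult and 16 second adult alternatives (filters, pseudocounts, quantile normalization, no variance trend, edgeR, DESeq2, replicate block, a threshold of 0.1, each library left out, and in the fetal table a germ cell covariate). The lowest adjusted p of a member was 0.180, 0.773 and 0.591. The fetal median stayed negative in 15 of 16 alternatives, and was 0.16 with the germ cell covariate. Adult medians stayed positive in 16 of 16 and 15 of 15; leaving out 1 library gave 0.16 to 0.66 in the first table and 0.04 to 0.73 in the second.

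Small changes turned sign. TRIP13 in the fetal table became -0.0027 with DESeq2 and -0.0029 with edgeR. Leaving out 1 library at a time gave fetal log2 changes of -0.053 to 0.39 for TEX14, -0.091 to 0.16 for MND1, -0.46 to 0.49 for SYCE3 and -0.12 to 0.15 for TRIP13. It gave -0.15 to 0.11 for SYCP3 in the first adult table and, in the second, -0.37 to 0.17 for SYCP3, -0.47 to 0.011 for SYCP1 and -0.45 to 0.66 for SMC1B. The causes were not tested.

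A replicate block on the sample number called 10 fetal genes in place of 3 and no adult gene in place of 1 in each table. In every fit 0 members were called. Whether the numbers pair the samples is not known. Few libraries, and counts near the listing floor of 61 reads in adults, limit what could be detected.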

Other observations

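CCDC36 is an older symbol of IHO1, a factor of meiotic break formation, and was kept out of the counts above. In the fetal table it had 79.1, 122 and 27.0 in controls 1, 2 and 3 and 73.5, 64.8 and 28.3 in testosterone 1, 2 and 3, with control 2 highest and control 3 lowest. Its log2 changes were -0.31 (SE 0.58) in the fetal table, 0.81 (SE 0.43) in the first adult table and 0.86 (SE 0.60) in the second, with adjusted p of 0.880, 1 and 1 by limma.

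Adult control 6 had more reads in the second adult table than in the first. Of 15773 genes in both tables, 154 had identical reads and none had more in the first, while control 4 and testosterone 5 and 6 were identical for all 15773.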
